A study of Mus musculus with 21 samples.

Results

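The genes of the urea cycle and of ammonia handling were followed in mouse liver after SPC3372, a locked nucleic acid oligonucleotide (antimiR-122) that blocks microRNA-122, the most abundant microRNA of hepatocytes. The 9 listed genes were Cps1, Nags, Otc, Slc25a15, Ass1, Asl, Arg1, Glul and Gls2, and a probe set counted for a gene where the platform annotation gave it that symbol alone. Of the 9 genes, 8 had such a probe set, with 12 probe sets in all among the 34945 probe sets of 1 symbol, which stood for 18193 genes. Gls2, the liver glutaminase, had none and was not analysed here. Female mice of the outbred NMRI stock received 25 mg/kg of SPC3372 or saline at day 2, and livers were taken at days 3, 9 and 23. The 6 groups were antimiR day 3, saline day 3, antimiR day 9, saline day 9, antimiR day 23 and saline day 23, with 3 mice in each. The labels name neither the age of the mice nor their feeding state. Whole-liver RNA was hybridised to Affymetrix mouse arrays, and values are log2 expression made by robust multi-array averaging (RMA). The 2 groups of a day always lay in the same array set, p0617 for days 3 and 9 and p0621 for day 23.

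The urea cycle turns ammonia, which is toxic to the brain, into urea for excretion, and its full set of enzymes is found mainly in the liver. Ammonia enters in the mitochondria as carbamoyl phosphate, is joined to ornithine to make citrulline, and leaves in the cytosol as urea once argininosuccinate and arginine have been formed. Periportal hepatocytes carry the cycle, while a thin layer of hepatocytes around the central vein carries glutamine synthetase, which binds the ammonia that the cycle has let pass.

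Promoter sequence is shown for 1 gene that fell in antimiR livers, Nags, and for the pericentral gene of the set, Glul, because these stand at opposite ends of the lobule. Both runs are the 250 bases before the annotated start, on the + strand, from RefSeq on GRCm38.p6. Capitals mark a match to the core letters bound by the TCF factors of Wnt signalling.
Nags, chr11:102145263-102145512: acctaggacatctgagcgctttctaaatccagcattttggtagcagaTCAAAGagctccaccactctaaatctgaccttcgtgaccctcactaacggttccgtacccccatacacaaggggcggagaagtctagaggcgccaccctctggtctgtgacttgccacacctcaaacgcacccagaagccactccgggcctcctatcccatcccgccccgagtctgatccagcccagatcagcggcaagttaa
Glul, chr1:153899679-153899928: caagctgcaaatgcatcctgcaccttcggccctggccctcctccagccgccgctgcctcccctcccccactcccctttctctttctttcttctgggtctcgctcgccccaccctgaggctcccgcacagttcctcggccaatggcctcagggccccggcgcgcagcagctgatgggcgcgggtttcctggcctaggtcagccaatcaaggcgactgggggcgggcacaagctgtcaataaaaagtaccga
The letters CTTTGA, read on both strands, were found once before Nags, 203 bases before the start, and in none of the other promoters searched, which were those of Glul, Ass1, Slc25a15 and Otc. They were present in 13.8% of 32851 promoters of the same length. No match was found in these 5 genes for CAAAGTCCA (HNF4, in 0.384% of promoters), TTGCNNCAA (C/EBP, in 1.74%), TGACGTCA (the full cyclic AMP response element, in 1.55%) or TGACG (its shorter site, which the full element contains, in 17.8%). A match describes the letters only.

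The libraries read as liver. All 7 measured hepatocyte markers lay above the median level of genes, and their joint level was 13.55 to 13.62 in antimiR livers and 13.58 to 13.63 in saline livers at day 3. It did not overlap at day 9 (13.57 to 13.63 in antimiR, against 13.34 to 13.42 in saline livers) or at day 23 (13.67 to 13.78 in antimiR, against 13.59 to 13.64 in saline livers). Of the 7, Apob, the main protein of very-low-density lipoprotein, rose at day 9 by 0.98 (limma adjusted p = 0.00716), and none passed at day 3 or day 23. The 5 measured bile duct markers and the 4 measured kidney markers lay below that median. Macrophage markers stood apart at day 3, when 7 of 12 rose and their joint level was 9.14 to 9.76 in antimiR livers, against 8.04 to 9.04 in saline livers. None of the 12 passed at day 9 or day 23. Of 11 measured lymphocyte markers, 3 rose at day 3 (Ccl5, Gzma and Gzmb). The joint level of the 11 was then 5.42 to 5.64 in antimiR livers, against 4.88 to 5.11 in saline livers. Of the 11, 8 lay below the median level of genes, among them Ccl5 and Gzmb. Of 9 measured stellate cell markers, 2 rose at day 9 (Dcn and Reln), when their joint level was 8.34 to 8.40 in antimiR livers, against 8.03 to 8.21 in saline livers. Of 8 measured endothelial markers, Clec4g rose at days 3 and 9, and 1 of the 5 bile duct markers rose at day 3. These marker counts stand beside 2.63% of all genes that rose at day 3 and 1.91% that rose at day 9. The log2 ratio of the 3' to the 5' beta-actin control, a measure of RNA integrity and labelling, was 1.03 ± 0.02 in antimiR and 0.80 ± 0.05 in saline livers at day 3 (SD, n = 3 each). At day 9 it was 1.14 ± 0.02 in antimiR and 0.93 ± 0.06 in saline livers, and at neither day did the groups overlap. At day 23 it was 1.15 ± 0.16 in antimiR and 1.16 ± 0.04 in saline livers. The same ratio of the Gapdh control overlapped between the groups on every day. It was 0.12 ± 0.18 in antimiR and 0.07 ± 0.19 in saline livers at day 3. At day 9 it was -0.06 ± 0.04 in antimiR and 0.15 ± 0.16 in saline livers, the opposite order to beta-actin. At day 23 it was 0.03 ± 0.03 in antimiR and 0.12 ± 0.08 in saline livers. The part of these cell type markers and of these ratios in the results below was not tested beyond the fits named there. With 3 arrays a group, precision is limited by their number.

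Averaged over the 3 days, 2 genes of the set fell in antimiR livers and none rose. Asl, argininosuccinate lyase, which splits argininosuccinate into arginine and fumarate, was 1.32-fold lower (log2 -0.40, SE 0.09, 95% interval -0.59 to -0.22, limma adjusted p = 0.00646). Nags, the mitochondrial synthase of N-acetylglutamate, the activator of Cps1, was 1.15-fold lower (log2 -0.21, SE 0.06, 95% interval -0.32 to -0.09, limma adjusted p = 0.0215). Both differences were below 0 on each of the 3 days, as were those of 19.6% of all genes. The test called 11.6% of all genes, 5.6% of all genes being higher and 6.01% lower, so the 2 of 8 rest on few genes beside that background. In the same mean over days 5 of 12 macrophage markers rose (C1qc, Cd5l, Cd68, Clec4f and Lyz2), as did 3 of 11 lymphocyte markers, 2 of 8 endothelial markers and 1 of 7 hepatocyte markers (Apob), while 1 endothelial and 1 stellate marker fell. In whole liver, fewer cells of a type and less RNA per cell cannot be told apart.

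**Figure D1:**
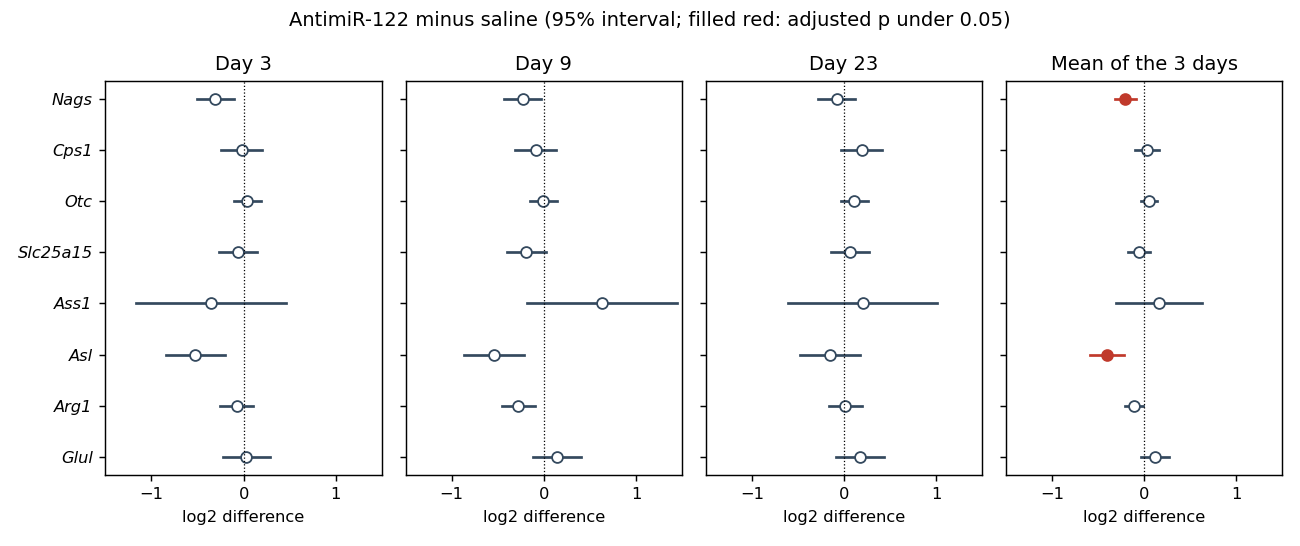
AntimiR minus saline difference of the 8 genes (log2, horizontal axis) at days 3, 9 and 23 and as the mean over days, with 95% intervals. Red filled points passed at an adjusted p under 0.05, which holds for Asl at -0.40 and Nags at -0.21 in the mean over days and for no gene at a single day.

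At each single day 0 of the 8 genes passed limma's test at an adjusted p under 0.05. The test called 4.51% of all genes at day 3 (2.63% higher and 1.88% lower), 2.81% at day 9 (1.91% higher and 0.896% lower) and 0.385% at day 23 (0.187% higher and 0.198% lower). At an unadjusted p under 0.05 the count was 2 at day 3, 3 at day 9 and 0 at day 23, where 18.3%, 16.8% and 13.9% of all genes did so. The median difference of the set was -0.07 at day 3, -0.14 at day 9 and 0.09 at day 23, beside 0.01, -0.02 and -0.02 for all genes. No gene of the set passed the test of a change in effect, which called 0.143% of all genes between days 3 and 9, 0.0055% between days 9 and 23 and 0.302% between days 3 and 23. At an unadjusted p under 0.05, 1 gene differed between days 9 and 23, and 0 differed between days 3 and 9 or between days 3 and 23, beside 8.69%, 11.6% and 10.3% of all genes. With dim genes left out, by testing only those above the median level, 2 of the 8 passed at day 3 (Asl, adjusted p = 0.0398, and Nags, 0.0408) and 2 at day 9 (Asl, 0.0450, and Arg1, 0.0442). That test called 11.8% of its 9096 genes at day 3 and 8.15% at day 9.

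The first step is carried by Cps1 and Nags. Cps1 is the mitochondrial carbamoyl phosphate synthetase that takes up free ammonia, and Nags makes its obligatory activator. Nags had 8.78, 8.81 and 8.77 in antimiR livers at day 3, against 9.22, 8.90 and 9.15 in saline livers. Every antimiR liver lay below every saline liver (difference -0.31, SE 0.10, limma adjusted p = 0.0786). On day 9 Nags had 8.61, 8.77 and 8.60 in antimiR livers, against 8.79, 8.90 and 8.98 in saline livers. The antimiR livers were again all lower, by a narrow margin (difference -0.23, SE 0.10, limma adjusted p = 0.225). At day 23 it had 8.53, 8.57 and 8.69 in antimiR livers, against 8.75, 8.53 and 8.75 in saline livers. The groups then overlapped (difference -0.08, SE 0.10, limma adjusted p = 0.782).

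Cps1 passed neither at a single day nor in the mean over days. At day 3 it had 13.59, 13.59 and 13.58 in antimiR livers, against 13.83, 13.27 and 13.71 in saline livers. The antimiR values were nearly identical and lay inside the wide saline range (difference -0.02, SE 0.11, limma adjusted p = 0.945). At day 9 it had 13.49, 13.40 and 13.50 in antimiR livers, against 13.51, 13.57 and 13.58 in saline livers. All antimiR livers were lower, the closest pair lying 13.50 against 13.51 (difference -0.09, SE 0.11, limma adjusted p = 0.726). At day 23 the order was opposite, with 13.64, 13.72 and 13.72 in antimiR livers against 13.55, 13.44 and 13.51 in saline livers (difference 0.19, SE 0.11, limma adjusted p = 0.438). The same 3 antimiR mice of day 23 had 13.58, 13.64 and 13.46 in the other array set, for which no saline array of day 23 was analysed here. The 95% interval of the mean over days was -0.10 to 0.16.

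Otc and Slc25a15 serve the mitochondrial citrulline step. Otc, ornithine transcarbamylase, joins carbamoyl phosphate to ornithine, and Slc25a15 is the ornithine carrier of the inner mitochondrial membrane. Otc was the steadiest gene of the set: over all 18 arrays its brightest probe set ran only between 12.89 and 13.11. At day 23 it had 12.98, 12.98 and 13.08 in antimiR livers, against 12.91, 12.90 and 12.90 in saline livers. These groups did not overlap (difference 0.11, SE 0.07, limma adjusted p = 0.510), while at day 3 (0.04) and day 9 (-0.01) they did. The same 3 antimiR mice of day 23 had 12.93, 12.97 and 12.90 in p0617, which overlaps the range of those saline livers. The other 2 Otc probe sets differed in direction at day 9, by 0.19 and -0.16 in the fit of all 45037 probe sets that were not controls. The second of these gave 11.84, 11.67 and 11.88 in the antimiR mice of day 23, but 11.50, 11.54 and 11.23 in the same mice in p0617, so its day 23 difference of 0.17 is smaller than the gap between array sets.

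Slc25a15 had 11.78, 11.91 and 11.90 in antimiR livers at day 9, against 12.05 in each of the 3 saline livers. All antimiR livers were lower (difference -0.19, SE 0.10, limma adjusted p = 0.348). The groups overlapped at day 3 (difference -0.06) and at day 23 (difference 0.07). Its dimmer probe set overlapped at all 3 days, with a difference of -0.12 at day 9 (SE 0.22).

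Ass1, argininosuccinate synthase, joins citrulline to aspartate, which brings the second nitrogen of urea. The probe set of this symbol alone varied widely between mice. At day 3 it had 7.58, 7.36 and 8.09 in antimiR livers, against 8.17, 7.74 and 8.18 in saline livers. These groups overlapped (difference -0.35, SE 0.39, limma adjusted p = 0.704). On day 9 the values were 7.66, 8.12 and 7.20 in antimiR livers, against 7.06, 7.03 and 6.99 in saline livers. All antimiR livers were higher, yet the spread was large (difference 0.64, SE 0.39, limma adjusted p = 0.434). At day 23 it had 6.91, 7.51 and 9.16 in antimiR livers, against 7.91, 7.63 and 7.44 in saline livers. Replicate 3 alone put the antimiR mean higher: the difference of 0.20 became -0.45 without it.

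A brighter probe set is annotated to both Ass1 and the locus Gm5424, so it stood outside the set and its signal cannot be assigned to Ass1 alone. Its difference had the opposite sign at day 9 and at day 23 (-0.20, SE 0.17), and the same sign at day 3. At day 9 it had 12.65, 12.99 and 12.50 in antimiR livers, against 13.20, 13.58 and 13.30 in saline livers. All antimiR livers were lower (difference -0.65, SE 0.17, limma adjusted p = 0.0665 over 45037 probe sets, of which 1.6% passed at day 9, 2.36% at day 3 and 0.122% at day 23). At day 3 it had 13.31, 12.79 and 13.56 in antimiR livers, against 13.58, 13.65 and 13.41 in saline livers, which overlapped (difference -0.33, SE 0.17). In the mean over days it fell 1.31-fold (log2 -0.39, SE 0.10, limma adjusted p = 0.0227, with 6.65% of probe sets called). Left out in turn, 17 of 18 arrays kept this call and antimiR day 9 replicate 3 ended it (adjusted p = 0.0513). With the beta-actin ratio as a covariate the value was -0.33 (adjusted p = 0.346). For Ass1, then, the 2 probe sets disagreed in sign at days 9 and 23, and which of them follows the gene was not settled. In the figures, medians and counts of the set, Ass1 stands by the dimmer probe set of its symbol alone.

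**Figure D2:**
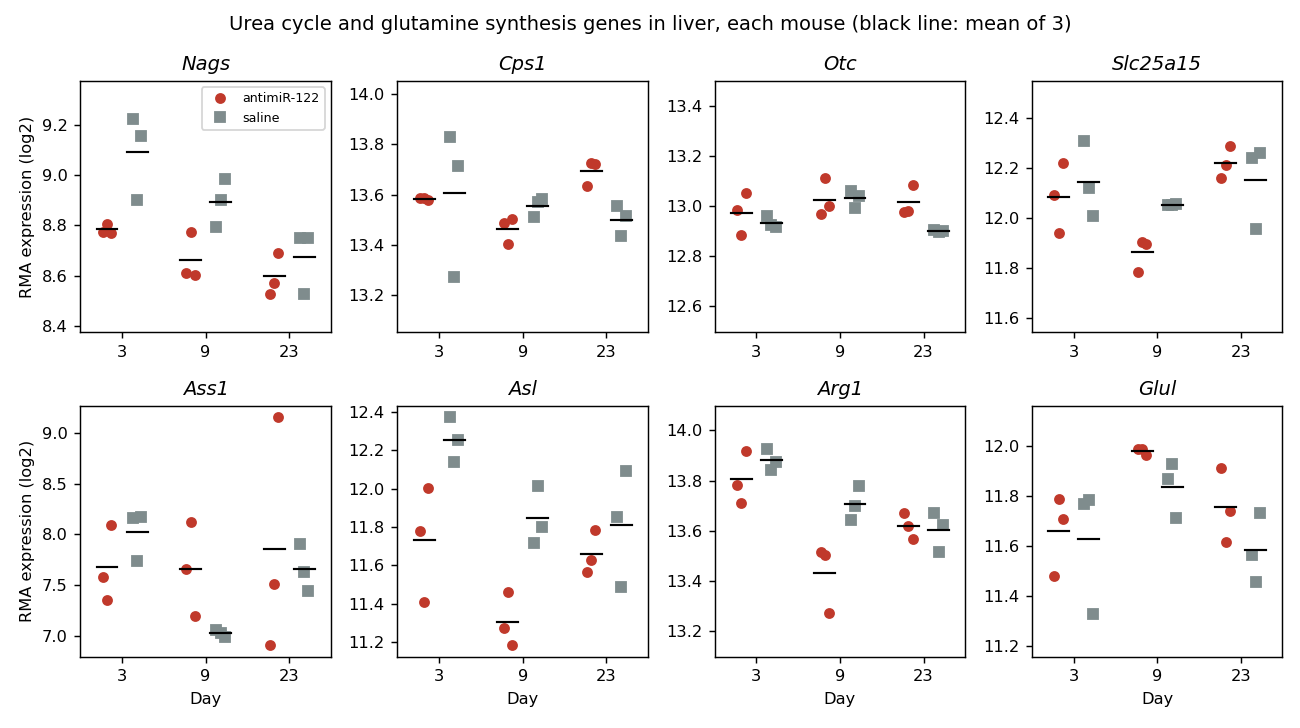
RMA level (log2, vertical axis) of each of the 8 genes in every mouse by day, antimiR left of saline, with the mean of 3 mice as a black line and a vertical scale of its own for each gene. Asl at day 9 lay between 11.18 and 11.46 in antimiR livers and between 11.72 and 12.02 in saline livers, and Otc ran only between 12.89 and 13.11.

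Asl had the largest mean difference of the 8 genes. At day 3 it had 11.78, 11.41 and 12.00 in antimiR livers, against 12.37, 12.14 and 12.25 in saline livers. On day 9 the values were 11.28, 11.46 and 11.18 in antimiR livers, against 11.72, 12.02 and 11.80 in saline livers. On both days every antimiR liver lay below every saline liver of its day, with differences of -0.52 at day 3 (SE 0.15, limma adjusted p = 0.0628) and -0.54 at day 9 (SE 0.15, limma adjusted p = 0.0729). At day 23 it had 11.56, 11.63 and 11.79 in antimiR livers, against 11.85, 11.49 and 12.09 in saline livers. The lowest liver of that day was a saline liver and the groups overlapped (difference -0.15, SE 0.15, limma adjusted p = 0.725). The change in effect between days 9 and 23, 0.39, did not pass (SE 0.22, limma adjusted p = 0.632).

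Arg1, arginase, releases urea and returns ornithine. At day 9 it had 13.52, 13.50 and 13.27 in antimiR livers, against 13.64, 13.70 and 13.78 in saline livers. All antimiR livers were lower (difference -0.28, SE 0.08, limma adjusted p = 0.0914). At day 3 it had 13.78, 13.71 and 13.92 in antimiR livers, against 13.92, 13.84 and 13.87 in saline livers, and at day 23 it had 13.67, 13.62 and 13.57 in antimiR livers, against 13.67, 13.52 and 13.62 in saline livers. The groups overlapped on both of these days (differences -0.08 and 0.01). The change in effect between days 9 and 23, 0.29 (SE 0.12), had the smallest unadjusted p of the set in that comparison and did not pass (limma adjusted p = 0.499).

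Glul, glutamine synthetase, sits outside the cycle and joins ammonia to glutamate. On day 9 the values were 11.99, 11.99 and 11.96 in antimiR livers, against 11.87, 11.93 and 11.71 in saline livers. All antimiR livers were higher by a narrow margin (difference 0.14, SE 0.12, limma adjusted p = 0.601). At day 3 it had 11.48, 11.79 and 11.71 in antimiR livers, against 11.77, 11.79 and 11.33 in saline livers, and at day 23 it had 11.91, 11.62 and 11.74 in antimiR livers, against 11.56, 11.46 and 11.73 in saline livers. The groups overlapped on both days. The 95% interval of its mean over days was -0.03 to 0.26. Its second probe set gave 0.19 at day 3, 0.19 at day 9 and -0.11 at day 23, with overlap on every day.

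Counted by separation, all antimiR livers lay below all saline livers for 2 of the 8 genes at day 3 (Asl and Nags), where 10.4% of all genes did so. At day 9 they did for 5 of 8 (Cps1, Nags, Slc25a15, Asl and Arg1), where 11.2% of all genes did. At day 23 they did for 0 of 8, where 11.1% of all genes did. Above the saline livers lay Ass1 and Glul at day 9 (10.4% of all genes), and Cps1 and Otc at day 23 (8.12%). Ass1 is counted here by the probe set of its symbol alone. The brighter probe set shared with Gm5424 lay below the saline livers at day 9. Asl and Nags were separated downward at both day 3 and day 9, as were 2.65% of all genes. The genes share the same 6 mice at a day, so they are not independent of each other.

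Across the 18 arrays Asl ran most closely with Arg1 (Pearson r = 0.80, Spearman rho = 0.75) and with Nags (r = 0.76, rho = 0.63). Once group means were removed these values of r were 0.59 and 0.57, and that of Asl with Slc25a15 was 0.78. These are descriptions, since the arrays share groups, days and array sets. Of all other genes, Zfp451 (r = 0.87), Rdh7, a retinol dehydrogenase (r = 0.84), and Mga (r = 0.84) had the pattern most like that of Glul. The genes most like Cps1 were Krt73 (r = 0.81), Aoah (r = 0.73) and 8430437L04Rik (r = 0.73), whose levels of 3.52 to 4.07 lay under the median of 5.88 over genes.

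The calls on Asl and Nags moved with the beta-actin control. The Gapdh ratio, which overlapped between the groups on every day, was not used in a fit. In the fit with the beta-actin ratio as a covariate, the mean difference over days was -0.31 for Asl (limma adjusted p = 0.272) and -0.16 for Nags (limma adjusted p = 0.367), and the number of genes called over the whole table was 461 in place of 2112. That ratio differed between the groups without overlap at days 3 and 9, so the adjustment also takes up part of any difference between groups. Both genes stayed past the threshold in all 18 fits that left out 1 array, with Asl between -0.46 and -0.35 and Nags between -0.24 and -0.18. In the mean of days 9 and 23 alone neither gene passed (adjusted p = 0.0715 for Asl and 0.203 for Nags), nor did they in that of days 3 and 23 alone (0.0708 and 0.0966). In the mean of days 3 and 9 alone both passed, with -0.53 for Asl (adjusted p = 0.00533) and -0.27 for Nags (adjusted p = 0.0183).

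**Figure D3:**
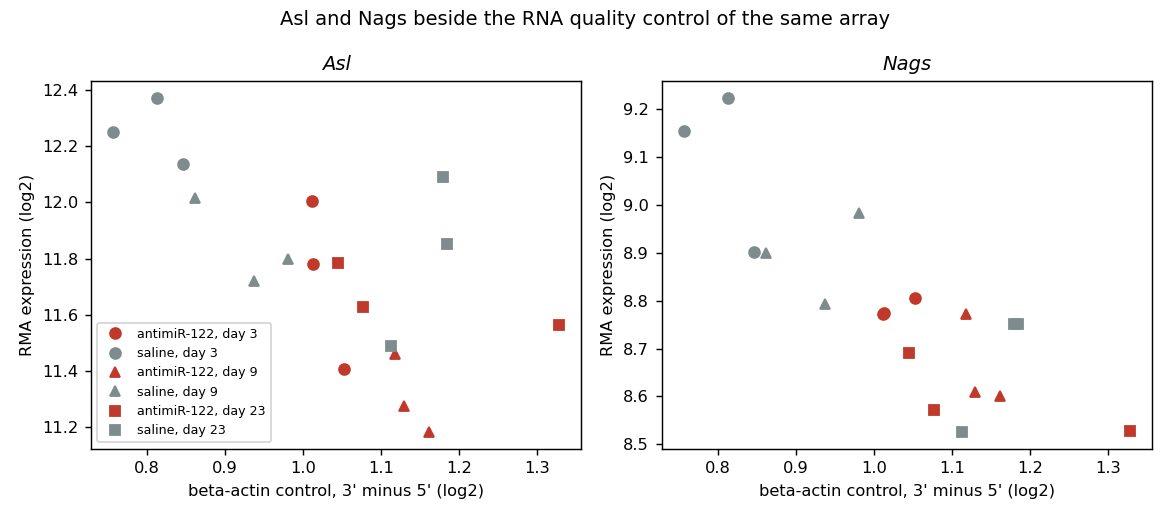
RMA level (log2, vertical axis) of Asl and Nags in each of the 18 mice against the log2 3' to 5' ratio of the beta-actin control on the same array (horizontal axis), with antimiR and saline mice of each day marked apart. At days 3 and 9 the antimiR mice lie at higher ratios and lower levels, and at day 23 the groups overlap on both axes.

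Around the cycle, Got1 and Glud1, which move amino nitrogen, changed at day 9 in opposite directions. Of 12 measured transaminases and enzymes of glutamate and ornithine, 1 rose and 1 fell at day 9, and 0 passed at day 3 or day 23. Of all genes 1.91% rose and 0.896% fell at day 9. The counts of the lists below likewise stand beside 4.51% of all genes called at day 3, 2.81% at day 9 and 0.385% at day 23. Got1, the cytosolic aspartate transaminase, had 10.31, 10.07 and 9.85 in antimiR livers at day 9, against 11.43, 11.29 and 11.21 in saline livers. It fell 2.36-fold (log2 -1.24, SE 0.16, limma adjusted p = 0.000603), and its highest antimiR liver, at 10.31, lay below the lowest saline liver, at 11.21. Glud1, glutamate dehydrogenase, which releases ammonia from glutamate in mitochondria, had 13.15, 13.00 and 13.08 in antimiR livers at day 9, against 12.55, 12.62 and 12.41 in saline livers. It rose 1.46-fold (log2 0.55, SE 0.09, limma adjusted p = 0.0045). Both calls held in all 6 fits without 1 array of day 9 and neither held with the beta-actin ratio as a covariate, where the differences were -1.08 for Got1 (adjusted p = 0.0684) and 0.54 for Glud1 (adjusted p = 0.107). The median of the 12 genes at day 9 was 0.02, beside -0.02 for all genes.

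Carriers and channels for urea, ammonium, glutamine, aspartate and arginine changed in few cases. Their list of 14 measured genes also holds the enzyme Car5a and is called carriers and channels throughout. Of the 14, 2 rose and 1 fell at day 3, 1 rose at day 9 and 1 rose at day 23. Aqp9, an aquaglyceroporin of hepatocytes that also passes urea, had 11.81, 12.07 and 11.88 in antimiR livers at day 3, against 11.62, 11.48 and 11.43 in saline livers. It rose 1.33-fold (log2 0.41, SE 0.08, limma adjusted p = 0.00821), a call that held without any single array. At day 9 Aqp9 had 12.37, 12.39 and 12.41 in antimiR livers, against 12.06, 11.99 and 12.10 in saline livers, and rose 1.27-fold (limma adjusted p = 0.0343), a call that each of the 6 arrays of day 9 ended when left out. Slc7a2, a carrier of arginine and ornithine, rose 1.45-fold at day 3 (log2 0.53, SE 0.14, limma adjusted p = 0.0428). Slc25a12, a mitochondrial aspartate and glutamate carrier, fell 1.40-fold at day 3 (log2 -0.49, SE 0.11, limma adjusted p = 0.0161), while the mean of its probe sets gave -0.16 (adjusted p = 0.394). Slc38a4, an amino acid carrier, rose 1.44-fold at day 23 (log2 0.52, SE 0.11, limma adjusted p = 0.0457), and with the p0617 arrays of the antimiR mice this difference was 0.22 (adjusted p = 0.377), and with the mean of its probe sets 0.27 (adjusted p = 0.137). Left out 1 at a time, arrays of the day ended the calls on Slc7a2 (5 of 6), Slc25a12 (3 of 6) and Slc38a4 (5 of 6).

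**Figure D4:**
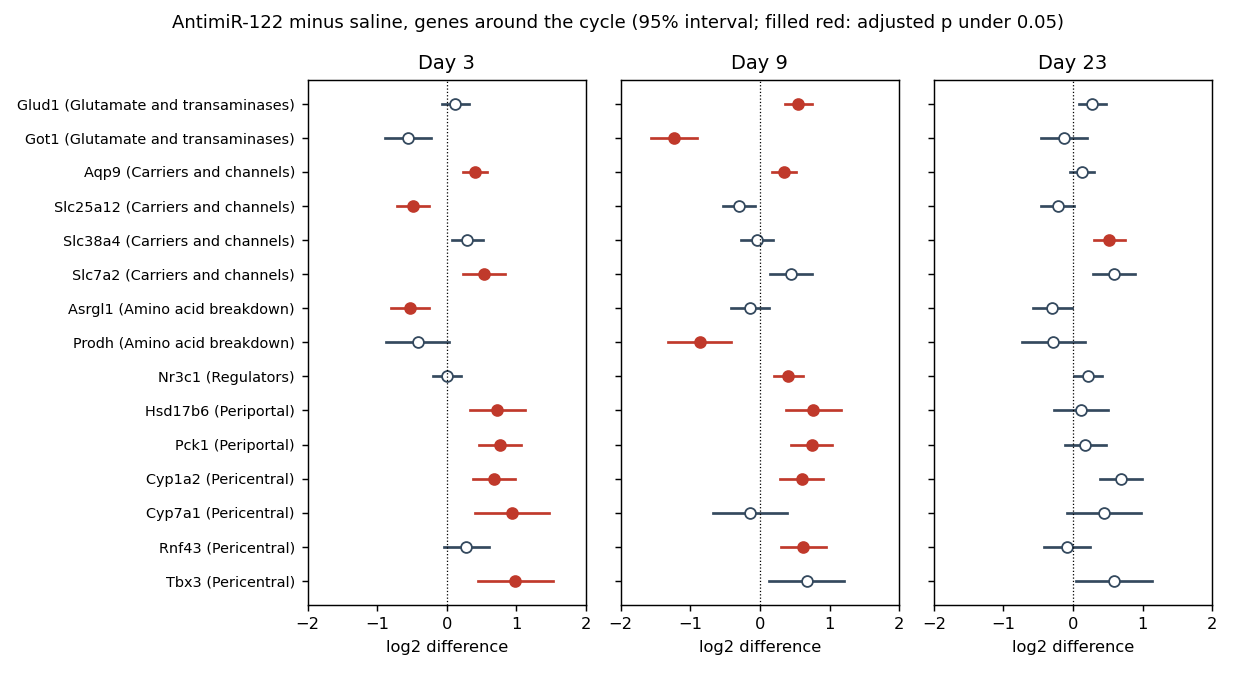
AntimiR minus saline difference (log2, horizontal axis) of genes around the cycle at days 3, 9 and 23, with 95% intervals. Red filled points passed at an adjusted p under 0.05, among them Got1 at -1.24 and Glud1 at 0.55 at day 9 and Aqp9 at 0.41 at day 3.

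Enzymes that release ammonia from amino acids gave 1 decrease at day 3 and 1 at day 9 among 13 measured, and none at day 23. Asrgl1, an asparaginase-like enzyme, fell 1.44-fold at day 3 (log2 -0.52, SE 0.13, limma adjusted p = 0.0273), with 4 of 6 left-out arrays ending the call. Prodh, proline dehydrogenase, had 9.77, 10.15 and 9.61 in antimiR livers at day 9, against 10.49, 11.01 and 10.63 in saline livers. It fell 1.82-fold (log2 -0.87, SE 0.22, limma adjusted p = 0.0389), and 5 of 6 left-out arrays ended the call. The median of the 13 genes was 0.01 at day 3, -0.13 at day 9 and 0.09 at day 23.

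Of 11 measured regulators of the cycle, 0 passed at day 3, 1 at day 9 and 0 at day 23. Nr3c1, the glucocorticoid receptor, had 9.61, 9.45 and 9.71 in antimiR livers at day 9, against 9.19, 9.19 and 9.17 in saline livers. It rose 1.33-fold by its brightest probe set (log2 0.41, SE 0.10, limma adjusted p = 0.0323), while the mean of its probe sets gave 0.0058, and 5 of 6 left-out arrays ended the call. Hnf4a (0.12, limma adjusted p = 0.671) and Cebpa (0.01, limma adjusted p = 0.979), transcription factors of hepatocytes, did not pass at day 9.

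Zonation was read from genes outside the set. Of 17 measured pericentral genes, 3 rose at day 3, 2 rose at day 9 and 0 passed at day 23. None fell at a single day. In the mean over days 5 of the 17 rose and Cyp27a1 fell (-0.28, limma adjusted p = 0.0422), where 5.6% of all genes rose and 6.01% fell. The median of the 17 genes was 0.16, 0.10 and 0.11 at the 3 days, beside 0.01, -0.02 and -0.02 for all genes. Their joint level was higher in antimiR livers without overlap on each day. It was 10.23 to 10.32 in antimiR livers, against 9.91 to 10.12 in saline livers, at day 3. At day 9 it was 10.34 to 10.43 in antimiR livers, against 10.17 to 10.30 in saline livers. At day 23 it was 10.085 to 10.214 in antimiR livers, against 9.807 to 10.056 in saline livers. Cyp1a2, a pericentral cytochrome, had 12.60, 12.34 and 12.45 in antimiR livers at day 3, against 11.82, 11.68 and 11.86 in saline livers, and rose 1.60-fold (log2 0.68, SE 0.15, limma adjusted p = 0.0115). It rose 1.51-fold at day 9 (limma adjusted p = 0.0351). The transcription factor Tbx3 (0.99) and the bile acid synthesis enzyme Cyp7a1 (0.94) also rose at day 3, and Rnf43, a Wnt receptor regulator, rose by 0.63 at day 9.

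Of 13 measured periportal genes, 2 rose at day 3, 2 rose at day 9 and 0 passed at day 23. They were Pck1 and Hsd17b6 on both days. In the mean over days 2 of the 13 rose and Pigr fell (-0.26, limma adjusted p = 0.0101). The median of the 13 genes was 0.08, 0.07 and -0.02 at the 3 days. Their joint level was 11.65 to 11.72 in antimiR livers, against 11.34 to 11.63 in saline livers, at day 3. It overlapped at days 9 and 23. Pck1, the gluconeogenic phosphoenolpyruvate carboxykinase, had 12.15, 12.51 and 12.06 in antimiR livers at day 3, against 11.51, 11.46 and 11.46 in saline livers, and rose 1.70-fold (log2 0.76, SE 0.14, limma adjusted p = 0.00408). At day 9 it rose 1.68-fold (limma adjusted p = 0.0101). Hsd17b6, a hydroxysteroid dehydrogenase, rose by 0.73 at day 3 and 0.77 at day 9. Pck1 at day 3 kept its call without any single array, and at day 9 it lost it without antimiR day 9 replicate 1 (adjusted p = 0.0514). The calls on Cyp1a2, Tbx3, Cyp7a1, Rnf43 and Hsd17b6 each ended without at least 2 of the 6 arrays of the day. Averaging all probe sets of the gene in place of taking the brightest gave 0.36 for Pck1 (adjusted p = 0.196), 0.48 for Tbx3 (0.0819) and 0.45 for Hsd17b6 (0.0236) at day 3. At day 9 it gave 0.41 for Hsd17b6 (0.0584) and 0.52 for Pck1 (0.0753). Cyp7a1 was 0.61 without antimiR day 3 replicate 1 (adjusted p = 0.214), and Rnf43 was 0.39 without antimiR day 9 replicate 3 (adjusted p = 0.143).

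With the beta-actin ratio as a covariate none of the 18 calls at days 3 and 9 on genes of these 6 lists passed. Over all genes that fit called 98 at day 3 in place of 821, and 35 at day 9 in place of 511. The differences of the 18 calls kept their direction and were 51.8% to 113% of those reported, with a median of 86.8%. The differences of Pck1 were 0.86 at day 3 and 0.84 at day 9 in that fit, and that of Prodh was -0.88. The most reduced were those of Nr3c1 (0.21), Tbx3 (0.58) and Rnf43 (0.38).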

How the data were processed

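The authors deposited log2 expression values per probe set for 21 arrays of 18 mice, made with RMA per the submitters' processing notes, with neither its version nor the joint arrays stated in the labels used here. RMA corrects background, quantile-normalizes and summarises probes, and it compresses differences of dim probe sets. Of 45101 probe sets, 64 were controls, 34945 had 1 gene symbol in the platform annotation, 932 had several and 9160 had none. Each gene was represented by its brightest probe set over the 18 arrays, 1 per mouse (p0621 for day 23).

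Group means were fitted with limma (version 3.58.1, R 4.3.3, 12 residual and 4.85 prior degrees of freedom), two-sided, with Benjamini-Hochberg adjustment over 18193 genes and a threshold of 0.05. Of the mouse numbers, 4 recur between days 3 and 9 (deviations correlated at -0.15 to 0.13), and these were taken as different animals. The design text calls the 3 mice of a group biological replicates. The genes and lists were chosen with earlier results of these data known. Named were every gene of the set, list genes past the threshold at a day (up to 6 a list, otherwise up to 3 by mean effect) and the 3 genes most like Cps1 and Glul.

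The alternatives were a fit on each day's arrays, renormalization, 2 level filters, other probe set rules, an intensity trend, a replicate block, a 1.5-fold minimum, other day 23 arrays and each array left out. The beta-actin covariate, means of fewer days and the settings of the probe set shared with Gm5424 were added after the data were seen. The fits were tested on simulated data, in which 50 genes above the 75th percentile of level were changed by each size. Genes that were not changed had no difference between groups. A log2 change of 0.25 was recovered in 8%, 4% and 2% of its 50 genes at days 3, 9 and 23. In the mean over days it was recovered in 34%. For a change of 0.5 these shares were 58%, 64%, 68% and 90%. Promoters came from RefSeq (GRCm38.p6).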

Additional observations from a re-analysis of the deposited data

Results flagged for a closer look

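Cps1 had all antimiR livers below all saline livers at day 9 and above them at day 23, which drew attention as a difference between days. The change in effect was 0.28 on the log2 scale (SE 0.15, unadjusted p = 0.0753, limma adjusted p = 0.609), so the test of the difference itself did not pass. At day 9 the livers had 13.40 to 13.50 with antimiR and 13.51 to 13.58 with saline, and at day 23 they had 13.64 to 13.72 with antimiR and 13.44 to 13.55 with saline. Day 23 lies in another array set, and in p0617 the same antimiR mice of day 23 had 13.46 to 13.64. Of 23 genes looked at for such a difference, Cps1 was the 1 that met it. Groups of 3 were too small to look for single outlying mice.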

How the results depend on the processing

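The count of genes of the set past the threshold in the mean over days was 2 in the fit reported. It became 0 with a 1.5-fold minimum, with the beta-actin ratio as a covariate, and in the means of days 9 and 23 alone and of days 3 and 23 alone, and it was 2 in all 18 fits without 1 array. At day 3 the count of 0 became 2 above the median level and 2 above the 75th percentile, and 0 to 1 without 1 array. Asl passed without antimiR day 3 replicate 3 (adjusted p = 0.0245) and Nags passed without saline day 3 replicate 2 (0.0329). At day 9 the count of 0 became 2 above the median level, 2 above the 75th percentile and 1 with a trend and robust prior (Arg1, 0.0313). At day 23 it was 0 throughout.

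With the replicate block the counts were 0, 0, 0 and 2 at days 3, 9 and 23 and in the mean (adjusted p = 0.00857 for Asl and 0.0293 for Nags). Replicates of the same number in both groups of a day had deviations that correlated at r of -0.14 to 0.08, so the numbers were not taken as pairs. The block took the number of all genes called at day 23 to 13, against 70.

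Each difference that changed sign missed the threshold in every fit of its own comparison. With the beta-actin covariate the values were 0.0676 for Cps1, 0.778 for Ass1 and -0.178 for Glul at day 3, 0.0358 for Otc and -0.0547 for Glul at day 9, and -0.0177 for Glul in the mean. Otc at day 9 became 0.0340 with quantile normalization, 0.0139 with median centring and 0.00850 with the mean of probe sets. With the p0617 arrays Ass1 became -0.0681 and Slc25a15 -0.0332 at day 23, and Cps1 -0.0176 in the mean. Arg1 at day 23 became -0.00153 with quantile normalization. In the mean of days 3 and 9 alone Cps1 became -0.0561, and in that of days 3 and 23 alone Ass1 became -0.0745 and Slc25a15 0.00284. Without 1 array, day 3 ran from -0.189 to 0.0900 for Cps1, -0.131 to 0.0187 for Slc25a15 and -0.117 to 0.119 for Glul. Day 9 ran from -0.0473 to 0.0242 for Otc. Day 23 ran from -0.449 to 0.677 for Ass1, -0.0293 to 0.0488 for Arg1 and -0.0302 to 0.122 for Slc25a15, and the mean from -0.0285 to 0.0644 for Cps1 and -0.0544 to 0.321 for Ass1. Of 321 refits of the 19 calls on list genes, 174 kept the call, 147 lost it and 0 changed direction. The causes were not tested.

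Small differences of single genes are limited by 3 mice a group: at day 3 the standard error of a difference was 0.07 for Otc and 0.39 for Ass1.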

Other observations

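Between saline livers of day 9 and of day 3, which also serve as the controls above, 0 genes of the set passed the limma test, where 5.88% of all genes did, and 2 had an unadjusted p under 0.05, as 18% of all genes did. Asl had 11.72, 12.02 and 11.80 in saline livers of day 9, against 12.37, 12.14 and 12.25 in those of day 3 (difference -0.41, SE 0.15, limma adjusted p = 0.149). The probe set of Ass1 alone had 7.06, 7.03 and 6.99 in saline livers of day 9, against 8.17, 7.74 and 8.18 in those of day 3 (difference -1.003, SE 0.39, limma adjusted p = 0.161), while the brighter probe set shared with Gm5424 gave -0.18 (SE 0.17, limma adjusted p = 0.734). Of the 14 carriers and channels, 4 rose between these saline groups: Aqp9 (0.54, limma adjusted p = 0.000706), Slc7a2 (0.70, 0.00635), Slc38a4 (0.44, 0.0203) and Slc38a3 (0.38, 0.0226). Tat, the tyrosine transaminase, fell 2.12-fold between them (log2 -1.09, SE 0.16, limma adjusted p = 0.000536), Odc1, ornithine decarboxylase, fell by 0.43 (limma adjusted p = 0.0408), and Sirt3, a mitochondrial deacetylase, rose by 0.50 (limma adjusted p = 0.00468). Of the 17 pericentral genes Cyp7a1 rose by 0.98 between these saline groups (limma adjusted p = 0.0285). Of the 13 periportal genes Hsd17b6 rose by 0.75 (limma adjusted p = 0.0229). Values of the same genes in antimiR against saline livers share the saline arrays, so no relation between the comparisons is given.

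In the mean over days, 2 of 12 enzymes of amino nitrogen rose and 1 fell. Of 13 enzymes that release ammonia 1 rose and 3 fell, and of 14 carriers and channels 4 rose and 1 fell. Of 11 regulators 1 rose and 1 fell. Of all genes 5.6% rose and 6.01% fell. Several of these neighbours of the cycle had passed at no single day. Sirt5, a mitochondrial desuccinylase known to act on Cps1, fell by 0.30 (SE 0.09, limma adjusted p = 0.0272). Amdhd1, an enzyme of histidine breakdown, fell by 0.21 (limma adjusted p = 0.0434), while Gldc, of the same list, rose by 0.19 (limma adjusted p = 0.0256). Gatm, which takes arginine into creatine synthesis, rose by 0.36 (limma adjusted p = 0.0375), and Slc1a2, a glutamate carrier of pericentral hepatocytes, rose by 0.51 (limma adjusted p = 0.0342). These, and Cyp27a1 and Pigr above, were named after their values were seen.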
